A study of Mus musculus with 30 samples.

Results

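The cells described here are mouse bone marrow progenitors whose RNA held messages of MHC class II, the peptide-presenting complex of antigen-presenting cells. They were chosen from droplet single-cell RNA-seq (10x Chromium, which counts individual RNA molecules by unique molecular identifiers, UMIs). A cell was taken when its UMIs of H2-Aa, H2-Ab1 and H2-Eb1, which encode the class II chains, summed to at least 5 per 10000 UMIs of that cell. It also had to carry under 5 per 10000 UMIs of the B cell genes Cd79a, Vpreb1, Vpreb3, Igll1 and Ebf1, and at most 10% mitochondrial UMIs. Of 24396 cells that met the mitochondrial limit, 739 (3.03%) passed the gate. Because expression chose the cells, their class II level and their contrast with other cells are given as descriptions, without a test.

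The 6 libraries held Lin-; c-Kit+ (LK) bone marrow cells of mice with floxed Mettl3, taken 3 weeks after pIpC, a synthetic double-stranded RNA. The 3 WT libraries came from mice of genotype Mettl3 fl/fl without Cre, and the 3 Mettl3KO libraries from Mx1-Cre; Mettl3 fl/fl mice, with a different mouse for each library of a genotype. Both genotypes carry the floxed gene, and the labels record the same interval after pIpC for both. Mx1-Cre is driven by an interferon-responsive promoter that is active in many cell types, so deletion was not limited to blood cells. The series also holds 24 bulk RNA-seq libraries of 4 sorted populations, 3 mice of each genotype in each: HSC, sorted as Lin-;Sca1+;c-Kit+;CD150+;CD48-, and 3 kinds of multipotent progenitor that share the first 3 markers. Of these, MPP1 lacked both CD150 and CD48, MPP2 carried both, and MPP4 carried CD48 without CD150.

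Class II molecules are pairs of an alpha and a beta chain, H2-Aa with H2-Ab1 for I-A and an I-E alpha chain with H2-Eb1 for I-E. Cd74, the invariant chain, guides them to endosomes, where H2-DM exchanges the peptide they carry and H2-O restrains H2-DM. Ciita is the co-activator that switches these genes on, acting at promoters that hold short conserved boxes, one of them the Y box bound by the factor NF-Y. In bone marrow, high class II marks dendritic cells and their late precursors, B cells and some macrophages. Conventional type 1 dendritic cells carry Xcr1 and Clec9a, type 2 cells carry Cd209a and Sirpa, and plasmacytoid cells carry Siglech. Mettl3 is the catalytic subunit of the complex that writes N6-methyladenosine (m6A) on RNA.

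The promoters of both gate genes shown next carry the Y box, and they are printed because the gate rests on these genes. The 130 bases before the RefSeq start are given 5′ to 3′ on the gene's strand, with the Y-box letters CTGATTGG in capitals. H2-Aa lies at chr17:34287824-34287953 on the minus strand, and H2-Eb1 at chr17:34305737-34305866 on the plus strand (RefSeq, GRCm38.p6).
H2-Aa: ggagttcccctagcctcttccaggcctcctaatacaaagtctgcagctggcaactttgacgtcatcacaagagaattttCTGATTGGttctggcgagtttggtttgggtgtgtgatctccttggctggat
H2-Eb1: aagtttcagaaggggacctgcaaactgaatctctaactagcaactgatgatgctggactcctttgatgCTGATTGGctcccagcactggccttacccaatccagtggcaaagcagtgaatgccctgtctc
The first letter of the box stands 51 bases before the start in H2-Aa and 62 bases before it in H2-Eb1. On either strand, CTGATTGG was found in 1258 of 32851 promoter windows (3.83%). Of 24 class II antigen presentation genes, 17 matched a window by symbol, and 4 of them held the motif: H2-Aa, H2-Eb1, H2-Eb2 and H2-Oa. The letters TGACGTCA, the core of a cAMP response element, were found in 508 windows (1.55%) and, among the class II genes, in H2-Aa. The genes themselves are neighbours on chromosome 17, H2-Ab1 at chr17:34257689-34269419 (plus strand), H2-Aa at chr17:34282744-34287823 (minus strand) and H2-Eb1 at chr17:34305867-34316674 (plus strand), in GENCODE vM21 coordinates of GRCm38.

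Depth and quality were as follows. The 10x libraries held 28796862 to 44308479 UMIs and 2946 to 4866 cells after the mitochondrial limit, and the gated cells of a library held 490845 to 881186 UMIs. Gated cells were shallower than the rest, with a median of 3320.5 to 5483 UMIs against 6067.5 to 10705. Within the gate, Mettl3KO cells were deeper (median UMIs of 5483, 4947 and 5027 against 4513, 4314 and 3320.5 in WT, exact two-sided permutation p = 0.1, the smallest that 3 against 3 allows). WT library 3 stood apart in granulocyte RNA: the 14 granulocyte genes summed to 100558 CPM (UMI counts scaled to a common library total) in its cells outside the gate, against 13562 to 24004 in the other 5 libraries. Of 24389 distinct cell barcodes, 303 occurred in more than 1 library, and none was gated in more than 1. Scrublet marked 248 cells (1.02%) as doublets, 8 of them gated.

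The class II level separated the gated cells into a high and a low group. The level, in UMIs of the 3 genes per 10000, ran from 5.01 to 644 with a median of 111 and quartiles of 10.4 and 277. There were 178 cells from 5 to under 10, 122 from 10 to under 50 and 439 at 50 or more. At the gate's edge, the 67 cells from 5 to 6 and the 97 non-gated cells from 4 to 5 both had a median of 2 class II UMIs. Their Cd74 stood at 661 and 591 CPM and their Cst3 at 649 and 763 CPM, so the cells just inside resembled those just outside. The limit of 50 used next was set after these levels had been seen.

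**Figure D1:**
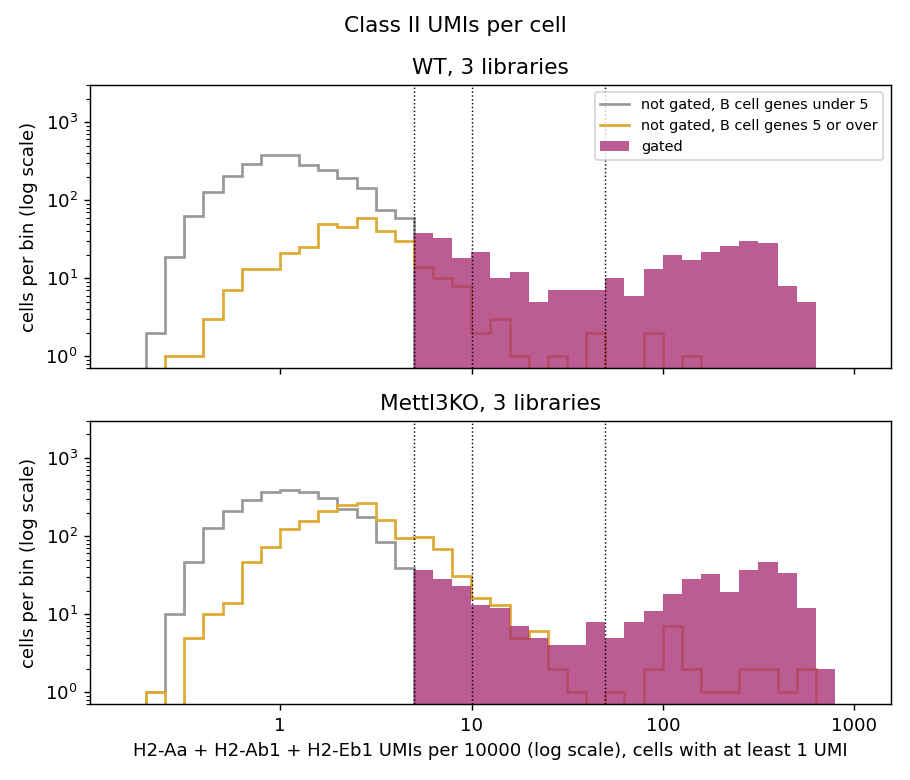
Histogram of the class II level (H2-Aa, H2-Ab1 and H2-Eb1 UMIs per 10000, log scale) of cells with at least 1 such UMI, in the 3 WT and the 3 Mettl3KO libraries, with the number of cells per bin on a log scale and dotted lines at 5, 10 and 50. The gated cells (filled) form a group above 50 and a second one that continues the distribution of the cells outside the gate (grey outline). The yellow outline gives cells that the limit on B cell genes kept out.

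The dendritic label held for the high group as a whole, though not shown for each of its cells. It did not hold for the cells from 5 to under 10, and held in part for those between. In the 439 cells at 50 or more, summed over all libraries, Plbd1, a phospholipase-like protein of dendritic cells, stood at 846 CPM and had a UMI in 84.5% of cells. Cst3 (cystatin C, a protease inhibitor abundant in dendritic cells) stood at 19341 CPM, and Irf8 and Id2, transcription factors of dendritic development, at 1956 and 1874 CPM. Cd34, a progenitor surface protein, was at 16.6 CPM there, and the stem cell transcription factor Hlf at 4.92 CPM. Itgax and Zbtb46, also on the pan dendritic list, had a UMI in 14.4% and 10.3% of these high cells. In LK cells outside the gate without B cell genes the shares were 0.243% and 2.31%. In the 178 cells from 5 to under 10, Plbd1 was at 4.28 CPM with a UMI in 1.69% of cells, no UMI of Clec9a was found, and Cst3 was at 708 CPM. Those low cells held Cd34 at 290 CPM, Hlf at 127 CPM and Dntt (terminal transferase, a lymphoid-priming gene) at 383 CPM, against 94.2, 10.1 and 37.4 CPM in the 19748 LK cells outside the gate without B cell genes. In the 122 cells from 10 to under 50, dendritic genes lay between those of the other bands and above those of the LK cells outside: Cst3 was at 3528 against 547 CPM, Id2 at 442 against 21.8 CPM, and Batf3 at 58 against 0.22 CPM. Plbd1 was at 92 CPM there, with a UMI in 20.5% of cells, beside Cd34 at 182, Hlf at 79.4 and Dntt at 145 CPM. The 300 cells under 50, tested together further on, thus mix cells with progenitor genes and cells with dendritic genes, and they are called class II-low cells.

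The invariant chain and the peptide-loading genes followed the same order. Cd74 was at 26973 CPM at 50 or more, 2859 from 10 to under 50 and 715 from 5 to under 10, against 14.5 CPM in the LK cells outside the gate without B cell genes. H2-DMa, the alpha chain of H2-DM, was at 1121, 384 and 305 CPM in the same 3 bands and at 100 CPM outside. Ciita was at 43.8, 7.56 and 1.07 CPM and at 0.205 CPM outside. The UMIs of H2-Aa per UMI of H2-Ab1, both genes of the rule, were 0.780, 0.909 and 0.598 in the 3 bands and 0.112 outside the gate. Elane, a neutrophil protease, had a UMI in 39.2% of the high cells (median 4500 UMIs) and in 73.9% of the LK cells outside (median 8765 UMIs), and the source of these UMIs was not tested.

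Across the 739 cells the class II sum ranked most like Cd74 among 2806 genes with a UMI in at least 20% of gated cells (Spearman's rho 0.94). Tmsb4x, an actin-binding peptide (0.86), Cst3 (0.79), Plbd1 (0.78) and Cd52 (0.77) came next, followed by Psap, Naaa, H2-DMb1, H2-DMa and Atox1. Within single libraries the rho of Cd74 was 0.92 to 0.95 and that of Plbd1 0.74 to 0.78. The cells of a library share its preparation and the values share each cell's total, so these are descriptions across cells without a p.

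Against the other LK cells, the gate drew in the wider dendritic programme. Of 18668 genes, 1913 were higher in gated cells in 6 of 6 libraries (10.2%) and 6596 were lower in 6 of 6 (35.3%), and the median log2 ratio was -0.01. Cd74 (15928 ± 3384 against 62.8 ± 31.5 CPM, mean ± SD over 6 libraries), Ifi205, Ckb, Batf3, Plbd1, Xcr1, Naaa, Pid1, Slamf8 and Bcl2a1b led the genes that the gate had not used. Aif1, Phf11a, Id2, Nccrp1, Cadm1, Shtn1, Clec9a, P2ry6, Phf11b and Tnni2 completed the leading 20. Batf3, a transcription factor needed by type 1 dendritic cells, stood at 157 ± 35.1 against 0.328 ± 0.206 CPM. Xcr1, the chemokine receptor of that subset, stood at 112 ± 63.7 against 0.413 ± 0.154 CPM.

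By list, 10 of 12 type 1 dendritic genes were higher in 6 of 6 libraries (median log2 ratio 5.42), as were 14 of 16 pan dendritic genes (3.05), 17 of 24 class II antigen presentation genes (3.20) and 8 of 12 type 2 dendritic genes (2.48). The class II count and median include H2-Aa, H2-Ab1 and H2-Eb1, which were higher because they chose the cells. All 12 class I presentation genes were higher (1.08), B2m, the class I light chain, among them at 3688 ± 779 against 2295 ± 343 CPM. Of 23 interferon-stimulated genes in the table, 18 were higher (1.48), and of 14 macrophage genes, 7 (3.50). In the other direction, all 15 DNA replication genes (-0.80), 12 of 14 granulocyte genes (-3.09), 9 of 12 erythroid genes (-1.82) and 8 of 15 mitosis genes (-0.43) were lower in 6 of 6 libraries. Of 17 genes for writers, readers and erasers of m6A, 2 were lower and none was higher (-0.10). Rfx5 and Nfya, whose proteins bind class II promoters, were at 6.76 and 20.1 CPM in gated cells and 6.25 and 19.6 CPM in the others.

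Small numbers of cells carried the defining genes of each antigen-presenting type. Counting cells with at least 2 UMIs of Xcr1, Clec9a or Cadm1 (type 1), 172 gated cells were found, 167 of them in the high band, against 14 of the 23657 LK cells outside the gate. Cd209a (type 2) was found at that level in 26 gated cells and in 5 others. The migratory genes Ccr7, Fscn1 or Ccl22 were found in 25 gated cells and 22 others, the complement genes C1qa, C1qb or C1qc of macrophages in 38 and 35, and the natural killer genes Ncr1 or Il2rb in 7 and 56. The plasmacytoid genes Siglech, Cox6a2 or Ly6d were found in 34 gated cells and in 1023 others, which is 4.6% of the first and 4.32% of the second. Hlf, Mecom or Procr, genes of stem cells, were found in 36.7% of the 300 cells under 50, 2.51% of the 439 cells at 50 or more and 6.50% of the others. The proliferation genes Mki67, Top2a or Ccnb1 were found in 25.2% of gated cells and 58.6% of the others, which were deeper. Of the 439 high cells, 204 (46.5%) reached 2 UMIs in none of the 5 dendritic and macrophage sets, as did 259 of the 300 cells under 50. These gene sets were picked from the lists after values had been seen.

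Clustered on their own, the 739 cells gave 13 clusters. Cluster 1 (131 cells) led with Xcr1, Cadm1, Naaa and Clec9a and was type 1 dendritic-like, and cluster 12 (8 cells) with Ccl22 and Ccr7 was migratory dendritic-like. Cluster 7 (65 cells) led with the plasmacytoid genes Ly6d, Siglech and Cox6a2 and had 40 of its cells at 50 or more per 10000. It is left unnamed, since 9 of all 439 gated cells at that level had at least 2 UMIs of these genes. Cluster 2 (102 cells), led by Cd209a, Ccl6 and Ccr2, had a small lead over the rest in type 2 genes and is left unnamed, as is cluster 3 (87 cells) with the basophil protease genes Prss34 and Mcpt8 beside mitotic genes. Cluster 8 (32 cells) led with C1qa, C1qb, C1qc and Apoe and was macrophage-like. Clusters 5 and 6 (83 and 81 cells) were HSC/MPP-like, with Mecom and Procr in the first and Cd34, Dntt and Hlf in the second, at median class II levels of 8.34 and 8.57 per 10000. Cluster 4 (84 cells, median 7.69) mixed Pf4 of platelets, S100a8 and Ngp of neutrophils and haemoglobin genes and stays unnamed. Clusters 9, 10, 11 and 13 (32, 16, 13 and 5 cells) led with S100a4 and Nccrp1, with Selp and Gimap1, with Xcl1 and Ncr1, and with Jchain and Mzb1. Sizes of clusters are not compared between genotypes, since genes that define them differed between genotypes.

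**Figure D2:**
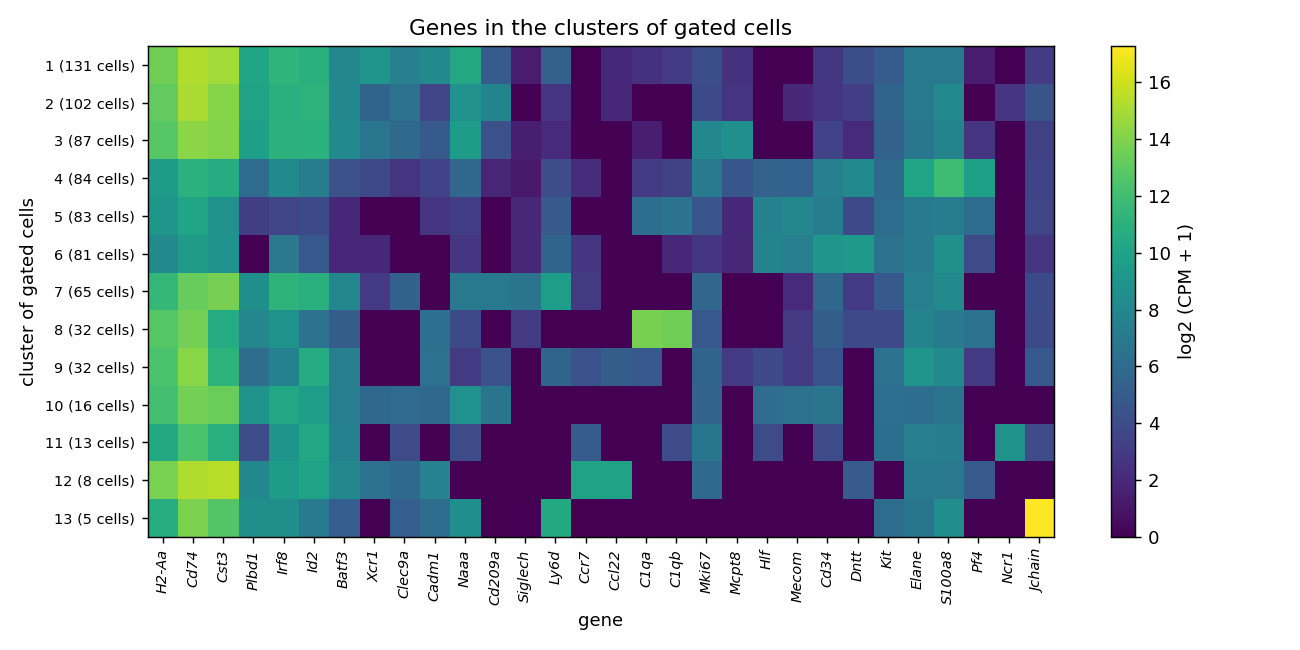
Heat map of log2 (CPM + 1) of 30 genes (columns) in the 13 clusters of gated cells (rows, with their numbers of cells), CPM being scaled UMI counts summed over the cells of a cluster. Cd74 is high in the type 1 dendritic-like cluster 1 and lower in clusters 4 to 6, which carry Cd34, Hlf or Elane, and C1qa and C1qb stand out in cluster 8.

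The targeted gene was sparse in these cells. Mettl3 (chr14:52294841-52305128, minus strand) gave 9, 14 and 10 UMIs in the WT gated cells (14.8, 22.8 and 20.4 CPM) and 4, 2 and 12 in the Mettl3KO gated cells (5.46, 3.14 and 13.6 CPM). By CPM every Mettl3KO library lay below every WT library, while the 12 UMIs of Mettl3KO replicate 3 lay within the WT range, and the filter on low counts removed the gene before testing. Which exons the deletion removes is not in the labels, so UMIs left after deletion cannot be told apart from UMIs of cells that escaped it. In the LK cells that met none of the comparison gates, Mettl3 was at 19.5, 21.6 and 17.5 in WT against 10.9, 12.5 and 12.8 CPM in Mettl3KO, without overlap.

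The gated share of LK cells was not shown to differ between genotypes. It was 2.57, 2.87 and 2.94% in WT and 2.85, 4.04 and 3.19% in Mettl3KO (2.79 ± 0.20 against 3.36 ± 0.61%, SD, n = 3 each). The 95% Wilson interval of the highest library, Mettl3KO replicate 2, was 3.39 to 4.81%, counting error only. Mettl3KO replicate 1 fell within the WT range, the difference was 0.57 percentage points, and the exact two-sided permutation p was 0.3. At 50 or more per 10000 the shares were 1.70, 1.2 and 1.54% against 1.93, 2.82 and 1.83%, a difference of 0.72 points without overlap (exact p = 0.1). Cells of at least 4000 UMIs were also thinned to 4000 and gated again, with shallower cells left out. The gated shares were then 2.30, 3.31 and 1.82% against 3.51, 4.31 and 3.87% (1.42 points, exact p = 0.1). The depth limit left out 43, 36 and 95 of the gated cells in WT and 26, 40 and 45 in Mettl3KO, so these shares are of a different set of cells. Under 50 per 10000 the difference was -0.15 points (exact p = 0.7), and with no UMI of a B cell gene allowed it was -0.42 points (exact p = 0.2). The B cell limit itself removed cells with the class II level in unequal numbers, 17, 14 and 13 in WT and 62, 86 and 113 in Mettl3KO.

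**Figure D3:**
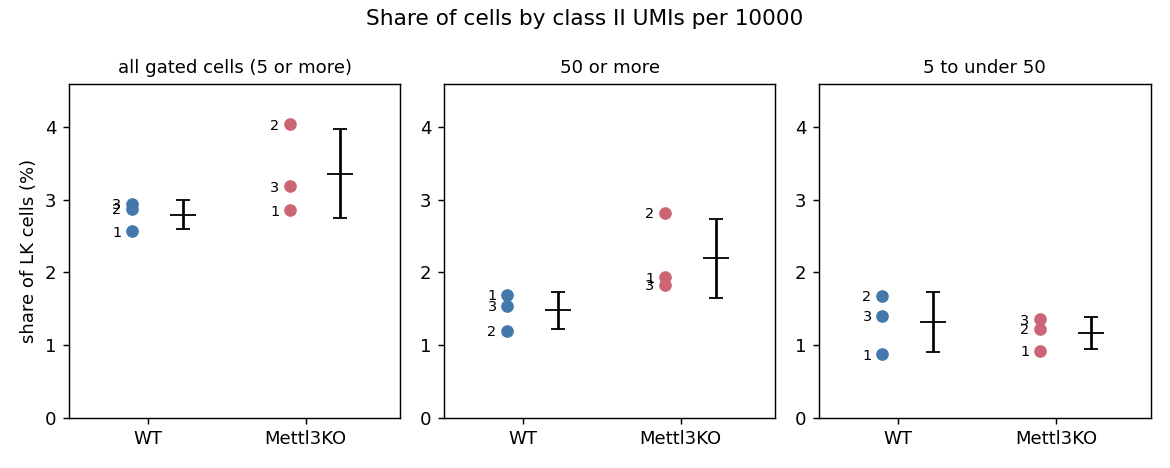
Share of LK cells (%) inside the gate, at 50 or more and from 5 to under 50 class II UMIs per 10000, for the 3 WT and 3 Mettl3KO libraries (points, numbered by replicate; bars are mean ± SD). The genotypes overlap in the left and right panels and do not in the middle one.

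In the gated cells as a whole, genes of macrophages led the differences between Mettl3KO and WT, and single type 1 dendritic, interferon-response and class I genes were among those that rose. Of 5986 genes tested with edgeR's quasi-likelihood test, 47 rose (0.785% of genes tested) and 5 fell (0.0835%) at a Benjamini-Hochberg adjusted p under 0.05. None of these 52 genes overlapped between the 3 WT and 3 Mettl3KO libraries, a count among called genes only that adds no separate support. One of them, H2-Eb1, is a gene of the gate whose values chose the cells, so its call is set aside, which leaves 46 that rose. Values below are CPM after TMM scaling in the order of replicates 1, 2 and 3. Macrophage-like cells were spread unevenly: cells with at least 2 UMIs of C1qa, C1qb and C1qc numbered 3, 2 and 1 in WT and 9, 17 and 6 in Mettl3KO, and without them 7 genes rose and 1 fell. Of the 43 called genes that could still be tested, 8 remained called. Single genes below are given with the C1q cells kept, unless another set of cells is named. The total of 52 also fell to between 16 and 32 without WT replicate 1 (32), 2 (16) or 3 (21) or Mettl3KO replicate 1 (28) or 2 (31), and was 63 without Mettl3KO replicate 3.

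Among called genes with a UMI in every WT library, the complement genes C1qb, C1qa, C3 and C1qc had the largest differences. C1qa (chr4:136895917-136898803) was at 40.2, 19.9 and 40.8 in WT against 812, 1788 and 539 CPM in Mettl3KO, a log2 fold change of 4.96 ± 0.43 (SE, adjusted p = 0.000105, edgeR). Mettl3KO replicate 2 was the highest and all 3 Mettl3KO libraries lay far above WT. C1qb and C1qc, its neighbours on chromosome 4 and partner subunits, rose by 5.24 and 4.66 on the same scale. C3, the central complement protein, was at 3.35, 1.66 and 4.08 against 85.5, 117 and 55.8 CPM (4.75 ± 0.46). Apoe, the lipid carrier, rose by 3.34, Fcna, a ficolin of macrophages, by 3.52, and Timp2, a metalloproteinase inhibitor, by 3.02. The calls of C1qa, C1qb, C1qc, C3 and Apoe held with any 1 library left out. That of Fcna was lost without 5 of the 6 libraries (adjusted p of 0.0553 to 0.161, edgeR; it held without Mettl3KO replicate 3), and that of Timp2 without WT replicate 2 or 3 (0.0763 and 0.0765).

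Pla2g2d and Clec4n had no UMI in any WT library. Pla2g2d (chr4:138775735-138782046), a secreted phospholipase A2 of antigen-presenting cells, had 96, 112 and 87 UMIs in the Mettl3KO gated cells. Clec4n, the lectin receptor dectin-2, had 64, 54 and 24. No fold is given for either, since a fold against 0 depends on the prior count. Of 8 macrophage genes tested, 3 rose (the C1q genes), all 8 had a positive difference and the median log2 fold change was 2.31, against -0.01 over all genes tested.

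Of the type 1 dendritic genes, Cadm1 and Xcr1 rose in the gated cells, while most of the list did not pass the test. Cadm1 (chr9:47530173-47857637), an adhesion molecule of that subset, was at 26.8, 23.2 and 26.5 in WT against 89.8, 153 and 87.4 CPM in Mettl3KO (2.08 ± 0.27 on the log2 scale, adjusted p = 0.00223, edgeR). Xcr1 (chr9:123852315-123862029) was at 87.1, 48.1 and 53 against 128, 232 and 165 CPM (1.46 ± 0.25, adjusted p = 0.0187, edgeR). The groups do not overlap in either gene. The call of Cadm1 held with any 1 library left out, and that of Xcr1 was lost without WT replicate 2 (1.29, adjusted p = 0.102, edgeR) or WT replicate 3 (1.35, 0.0966). Of 11 type 1 genes tested, these were the 2 that rose, and Clec9a (62, 33.2 and 38.7 against 71.2, 77.3 and 60.7 CPM), Batf3 (219, 121 and 151 against 171, 184 and 132 CPM) and Irf8 did not pass the test. Cells with at least 2 UMIs of Xcr1, Clec9a or Cadm1 numbered 25, 12 and 11 in WT and 40, 35 and 49 in Mettl3KO. The high cells held 167 of these 172 cells, so the calls of Cadm1 and Xcr1 in the high cells, given further on, are no separate support. Those calls were not refitted with 1 library left out. The median over the 11 genes was 0.16, and no pan dendritic gene of 15 tested passed.

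**Figure D4:**
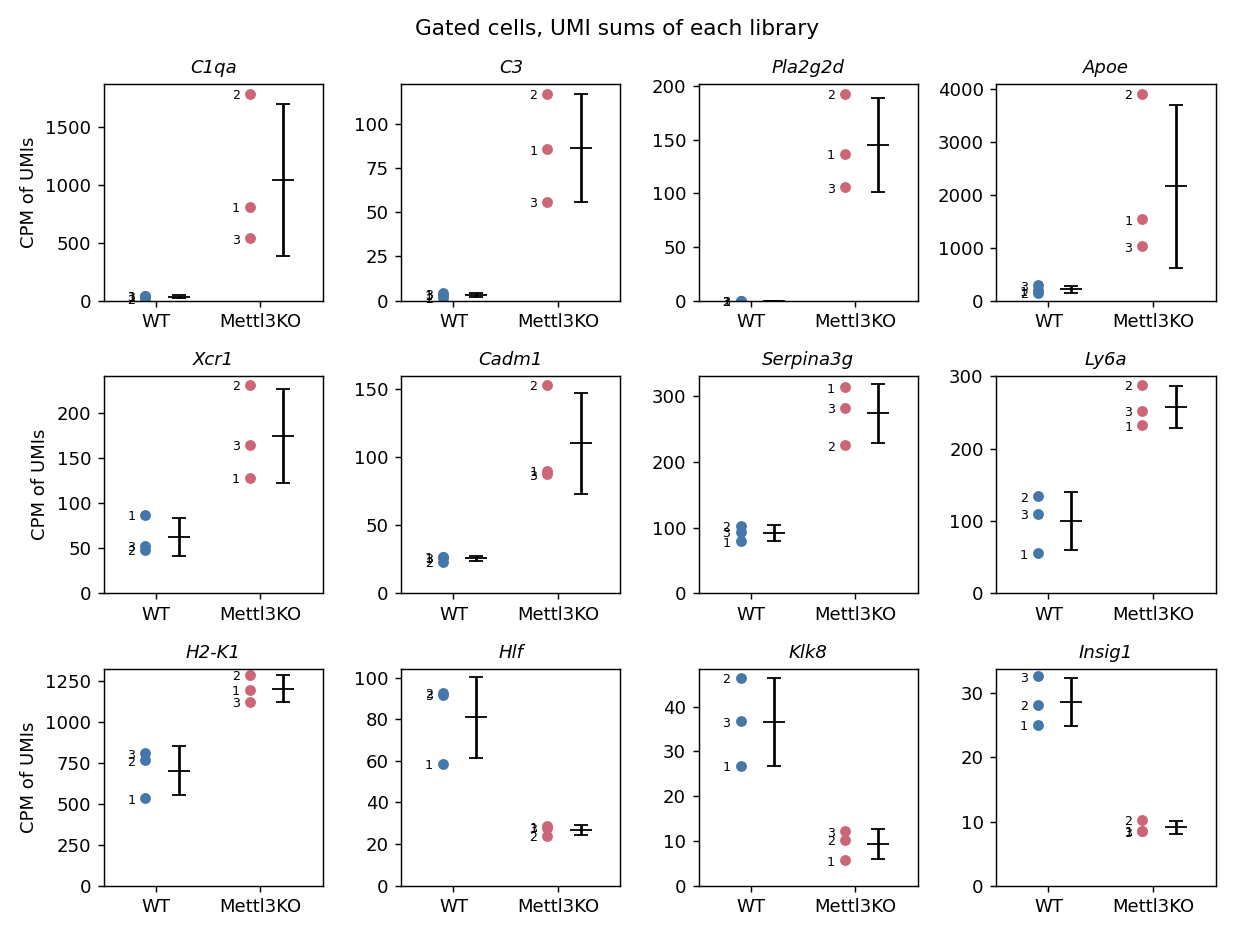
CPM of 12 genes in the gated cells of each library, WT and Mettl3KO, with points numbered by replicate and bars giving mean ± SD of 3 libraries. In each panel all Mettl3KO points lie on one side of the WT points, below them in Hlf, Klk8 and Insig1 and above them in the other 9 genes.

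Few interferon-response and class I genes passed the test, although every one tested had a positive difference. Of 15 interferon-stimulated genes tested, 3 rose and all 15 had a positive difference (median log2 fold change 0.65). Rtp4, a chaperone of receptors induced by interferon, was at 20.1, 34.8 and 32.6 in WT against 85.5, 82.5 and 75.2 CPM in Mettl3KO (1.47 ± 0.23), and the GTPases Iigp1 and Ifi47 rose by 1.67 and 0.95. Of 11 class I genes, H2-K1, a class I heavy chain, rose (534, 766 and 811 against 1197, 1290.2 and 1125 CPM, 0.77 ± 0.16), all 11 were positive and the median was 0.53. Ly6a (Sca-1), a surface protein that interferon induces and stem cells carry, was at 55.3, 134 and 110 against 232, 289 and 252 CPM (1.37 ± 0.24), and the serpins Serpina3g and Serpina3f rose by 1.58 and 3.11. In the cells outside the gate the 23 measured interferon-stimulated genes summed to 342, 377 and 383 in WT against 603, 651 and 593 CPM in Mettl3KO. The call of Rtp4 held with any 1 library left out, that of H2-K1 was lost whichever library was left out (adjusted p of 0.0706 to 0.171, edgeR), and that of Ly6a was lost without WT replicate 3 (0.0765). Iigp1 and Ifi47 each lost theirs without 5 of the 6 libraries, Iigp1 keeping it without Mettl3KO replicate 2 and Ifi47 without Mettl3KO replicate 3, and Serpina3f without WT replicate 2 or 3 or Mettl3KO replicate 1.

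Class II genes were higher in each Mettl3KO library than in each WT library for the 3 chains of the gate, which chose the cells, so these are given without a test. H2-Aa was at 4951, 3389 and 3998 in WT against 5782, 7375 and 5548 CPM in Mettl3KO, and H2-Ab1 at 6003, 4034 and 5535 against 7054, 10239 and 7038 CPM. H2-Eb1 was at 2381, 1787 and 2134 against 3085, 4438 and 3341 CPM. The median class II level per cell was 113, 20.7 and 71.8 per 10000 in WT and 145, 153 and 120 in Mettl3KO, and the high band held 66.1, 41.6 and 52.3% of the gated cells against 67.8, 69.7 and 57.4%. Cd74, which the gate did not use, did not pass the test (log2 fold change 0.39 ± 0.18, adjusted p = 0.490, edgeR), nor did Plbd1 (0.44 ± 0.23) or H2-DMa (0.28 ± 0.18). Of 16 other class II antigen presentation genes tested, none passed, 14 were positive and the median was 0.37 against -0.01 over all genes.

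The 5 genes that fell included a stem cell transcription factor and a red cell gene. Hlf (chr11:90336536-90390895) was at 58.6, 92.8 and 91.7 in WT against 28.5, 24.1 and 27.9 CPM in Mettl3KO (-1.57 ± 0.24, adjusted p = 0.00915, edgeR), and Ctla2a, an inhibitor of cysteine proteases, was at 119, 264 and 283 against 86.9, 68.7 and 91 CPM. Aqp1, the red cell water channel, was at 25.1, 71.3 and 26.5 against 2.85, 10.3 and 8.49 CPM. Klk8, a serine protease, fell by 1.93 and Insig1, a sterol sensor of the endoplasmic reticulum, by 1.63 on the log2 scale. Of 13 HSC/MPP genes tested, Ly6a rose, Hlf fell and the median was -0.41. Granulocyte genes (10 tested, all negative, median -0.70), DNA replication genes (14 tested, 13 negative, -0.39) and mitosis genes (15 tested, 14 negative, -0.29) had no member past the threshold. The part of the granulocyte RNA of WT replicate 3 in these was not tested. The call of Hlf was lost without WT replicate 2 (-1.46, adjusted p = 0.0640, edgeR), that of Insig1 whichever library was left out, and those of Aqp1, Ctla2a and Klk8 without 5, 5 and 4 of the 6 libraries.

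The high and low cells were then tested apart, with the cells of at least 2 C1q UMIs left out of the high ones. In the high cells 24 of 4187 genes rose (0.573%) and 5 fell (0.119%), 13 of the 29 also called over all gated cells. Xcr1 was at 125, 134 and 104 in WT against 214, 386 and 363 CPM in Mettl3KO (1.39 ± 0.21, adjusted p = 0.00114, edgeR), Cadm1 at 36.6, 62.1 and 56.5 against 133, 246 and 179 CPM, and Naaa, an amidase of type 1 dendritic cells, at 582, 526 and 539 against 890.2, 1272 and 909 CPM. These were the 3 that rose of 11 type 1 dendritic genes tested. Of the 11, 4 had a negative difference, and the median was 0.24. Cd81, a tetraspanin, had the smallest p (65.3, 105 and 34.8 against 216, 294 and 213 CPM, 1.83 ± 0.25). Cd36, a scavenger receptor that type 1 dendritic cells carry, rose by 1.42, and the ion pump subunit Atp1b1 by 3.27. Among class I genes H2-K1, B2m and H2-Q7 rose by 0.85, 0.57 and 1.29, 3 of 11 tested.

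In the same high cells Ms4a6c, a monocyte membrane protein, was at 690, 731 and 856 in WT against 394, 434 and 453 CPM in Mettl3KO (-0.82 ± 0.13). Fdps and Idi1, enzymes of sterol synthesis, fell by 0.91 and 1.65 on the log2 scale. S100a9, a neutrophil gene, fell by 2.50, yet its groups overlapped (52.2, 66.9 and 617 against 57, 45.7 and 18.7 CPM) and the high value was that of WT replicate 3. Of 15 class II genes tested besides those of the gate, none passed, and their median was 0.26 against 0.00 over all genes. No interferon-stimulated gene of 7 tested passed either.

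In the 300 cells under 50, 11 of 3498 genes rose (0.314%) and 6 fell (0.172%). Serpina3g, at 79.8, 132 and 147 in WT against 701, 408 and 445 CPM in Mettl3KO (2.08 ± 0.25, adjusted p = 0.00295, edgeR), was the single gene called in both the high and the low cells. Ly6a (144, 189 and 173 against 511, 438 and 372 CPM), Isg15, a ubiquitin-like interferon product (31.9, 20 and 43.3 against 158, 154 and 86.4 CPM), Ifi47 and Rtp4 rose. Of 13 interferon-stimulated genes tested there, 3 rose and all were positive, with a median of 0.92. Hlf fell by 1.51, Cst3 by 1.04, Ctla2a by 1.07 and Ifi205 by 1.90 on the log2 scale. Hlf was at 181, 160 and 195 in WT against 58.8, 82.8 and 52.3 CPM in Mettl3KO. Whether a difference itself differed between high and low cells was not tested.

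Shares of gated cells with at least 2 UMIs of each of 16 cell type lists gave no call, and with 3 against 3 none could pass: the lowest adjusted p was 0.267 (exact permutation test). B cell genes were found in 6.09, 6.93 and 8.59% of WT gated cells and in 21.5, 34.5 and 20% of Mettl3KO gated cells, although the gate limits 5 of them. By summed CPM the B cell list overlapped in the gated cells, at 62.4, 91.2 and 1999 in WT against 2383, 3621 and 163 CPM in Mettl3KO. Outside the gate it was at 570 to 890 CPM in WT and 2084 to 3665 CPM in Mettl3KO. Plasmacytoid genes were found in 53.6 ± 1.6 against 67.0 ± 4.0% and migratory genes in 13.6 ± 3.7 against 22.3 ± 3.7% of gated cells, and granulocyte genes in 94.6 ± 5.7 against 72.7 ± 12.4%. These 4 lists, and the erythroid and endothelial ones, had an exact p of 0.1 each. The part of depth and of the granulocyte RNA of WT replicate 3 in them was not tested. Thinning to 4000 UMIs kept only cells of at least that depth, 72, 65 and 33 gated cells in WT and 95, 79 and 110 in Mettl3KO. In these the B cell, plasmacytoid and migratory shares were 4.43 against 18.7%, 47.6 against 56.4% and 9.78 against 14%, each with an exact p of 0.1. The granulocyte share was 85.6 against 67.5% with an exact p of 0.2.

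Whether a genotype difference in the gated cells departed from that in the other LK cells was tested directly, with each library as a block. Of 12646 genes, 96 had a larger log2 difference in the gated cells (0.759%) and 66 a smaller one (0.522%), by edgeR's quasi-likelihood test at an adjusted p under 0.05. H2-Aa and H2-Eb1, genes of the gate, are among the 66 and are set aside. C3 was 3.21, 1.53 and 3.91 in WT against 80.7, 112 and 53.3 CPM in Mettl3KO gated cells, and 17.8, 17.7 and 40.6 against 11.7, 8.44 and 8.81 CPM in the others (a difference of 6.16 ± 0.45). Lyz2, lysozyme of macrophages and granulocytes, had a difference of 3.46 ± 0.33, with 434, 255 and 812 against 2238, 3543 and 1558 CPM in gated cells. Mecom, a stem cell transcription factor, went the other way: it was 48.1, 67.3 and 85.9 against 44.4, 14.8 and 44 CPM in gated cells and 9.86, 8.73 and 12 against 36.4, 19.3 and 21.2 CPM in the others (-2.24 ± 0.29). The adhesion gene Esam of endothelium and stem cells was at 9.62, 21.4 and 15.6 against 21.5, 14.8 and 24.3 CPM in gated cells and at 1.73, 2.88 and 3.09 against 21.5, 14.3 and 17.1 CPM in the others (-2.39 ± 0.41). C3 and Lyz2 were among the leading genes of the macrophage-like cluster 8. Gated cells with at least 2 C1q UMIs numbered 3, 2 and 1 in WT and 9, 17 and 6 in Mettl3KO. The other LK cells included those with B cell genes, 375, 176 and 238 in WT and 791, 1010 and 1319 in Mettl3KO. The interaction was not tested without the C1q cells, nor without the cells with B cell genes.

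Class II messages were also present at low levels outside the gate, where 1507 of 12652 genes rose (11.9%) in the cells without B cell genes. Of 16 class II genes tested there besides those of the gate, 1 rose and none fell, with a median of 0.04 against -0.00 over all genes. The cells here had been cut at a class II level of 5, so H2-Aa (1.96, 2.21 and 2.31 against 3.90, 4.76 and 5.04 CPM), H2-Ab1 (22, 28.5 and 25.1 against 29.5, 35.1 and 35.7 CPM) and H2-Eb1 (1.27, 1.12 and 1.40 against 2.03, 2.84 and 2.91 CPM) are values of the rule's own genes, given without a test. H2-Oa, the alpha chain of H2-O, was not used by the rule and rose from 8.64, 7.30 and 8.04 to 14.6, 13 and 11.8 CPM (0.71 ± 0.11, adjusted p = 0.00388, edgeR). Cd74 was at 11.6, 16.6 and 16.2 against 14.3, 14.1 and 14.7 CPM and did not pass. A UMI of the 3 gate genes was found in 24.2, 29.6 and 17.4% of all WT cells outside the gate and in 31.5, 43.1 and 38% of the Mettl3KO cells, and after thinning in 12.1, 13.7 and 10.6% and 17.8, 24.5 and 22%. These included cells with B cell genes, 375, 176 and 238 in WT and 791, 1010 and 1319 in Mettl3KO. In LK cells that met none of the comparison gates, the thinned shares were 10.1, 12.4 and 9.96% against 13.8, 16.3 and 15.6%. In monocyte-gene cells, chosen by F13a1 and Ly86, the share before thinning was 13.5 to 20%.

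The bulk libraries took no part in the gate and gave the class II genes in sorted stem and progenitor cells. In bulk RNA, fewer cells with a message and less of it per cell cannot be told apart. In HSC, 954 of 15523 genes changed (6.15%), and of 23 class II antigen presentation genes tested 5 fell and 1 rose, with a list median of -0.59 against 0.00 over all genes. H2-Aa was at 46.9, 71.9 and 110 CPM of reads in WT and 10.3, 14.1 and 24.8 CPM in Mettl3KO (-2.22 ± 0.42, adjusted p = 0.00296, edgeR). H2-Eb1 was at 28.2, 43.7 and 65.3 against 5.08, 11.5 and 13 CPM, and H2-Ab1 at 80.9, 102 and 145 against 19.1, 54.3 and 53.5 CPM (-1.37 ± 0.39, adjusted p = 0.0391, edgeR). Cd74 was at 310, 487 and 530 against 75.9, 165 and 195 CPM, and H2-Ob, the beta chain of H2-O, at 41.7, 28.6 and 14.9 against 5.68, 8.05 and 3.50 CPM. Every Mettl3KO library lay below every WT library for these 5 genes. Ifi30, a lysosomal thiol reductase, rose (4.29, 1.80 and 6.66 against 10.7, 17.6 and 17 CPM). The calls of H2-Aa, H2-Eb1, Cd74 and H2-Ob held with any 1 library left out, that of H2-Ab1 held only without WT replicate 1 (adjusted p of 0.0627 to 0.151 without each other library, edgeR), and that of Ifi30 only without WT replicate 3 or Mettl3KO replicate 1. With only the HSC libraries fitted, 293 genes rose and 228 fell of 13797, and H2-Ab1 and Ifi30 were no longer called (adjusted p of 0.107 and 0.0737, edgeR).

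Genes of other cells also moved in the HSC libraries. Flt3, a receptor of lymphoid-primed and dendritic progenitors, was at 169, 228 and 54.6 in WT against 15.4, 10.5 and 7.2 CPM in Mettl3KO (-3.77 ± 0.45, adjusted p = 4.6e-05, edgeR). Of the 16 pan dendritic genes tested, Flt3 was the 1 that fell and Batf3 the 1 that rose. That list summed to 1135, 1222 and 965 in WT against 1165, 1281 and 1294 CPM in Mettl3KO. The macrophage list (13 of 14 genes tested) summed to 339, 82.2 and 56.8 in WT against 82.2, 115 and 106 CPM in Mettl3KO, and WT replicate 1 stood apart, with C1qa at 25.5 CPM there and 0.44 to 2.76 CPM in the other 5 libraries. Of the list Cd5l alone was called, lower in Mettl3KO. Without WT replicate 1 the differences of H2-Aa, H2-Eb1, Cd74 and H2-Ob were -2.47, -2.46, -1.80 and -1.91, all called. The part of the cells that carry Flt3 in the class II differences was not tested.

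H2-Ob was the one class II gene that fell in HSC, MPP1 and MPP2. In MPP1, where 8.66% of genes changed, it was at 61.7, 65.1 and 62.9 in WT against 9.56, 6.94 and 6.16 CPM in Mettl3KO (-3.06 ± 0.32). H2-DMa fell there as well (196, 224 and 203 against 104, 71.2 and 61.9 CPM, -1.40 ± 0.22), and Cd40, a costimulatory receptor, was called from Mettl3KO replicate 2 alone (4.23 CPM, with 0 in the other 5 libraries). With only the MPP1 libraries fitted, 22 genes rose and 11 fell of 13544, H2-Ob was still called (adjusted p = 0.0218, edgeR), and H2-DMa was not (-1.39, adjusted p = 0.0764, edgeR). In MPP2 (2.46% of genes changed) H2-Ob was at 49.7, 57.1 and 67.5 against 14.8, 13.9 and 19.2 CPM (-1.87 ± 0.30), while H2-Aa was at 201, 225 and 141 against 168, 263 and 147 CPM and did not pass. In MPP4 (3.14%) no class II gene passed by edgeR. DESeq2 called 2 there, H2-DMa and Cd74, both lower, where 408 genes rose and 648 fell of 15523. Cd74 in MPP4 was at 2579, 4125 and 5542 against 1818, 2082 and 1933 CPM. The 4 populations share no libraries, and differences between them were not tested.

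**Figure D5:**
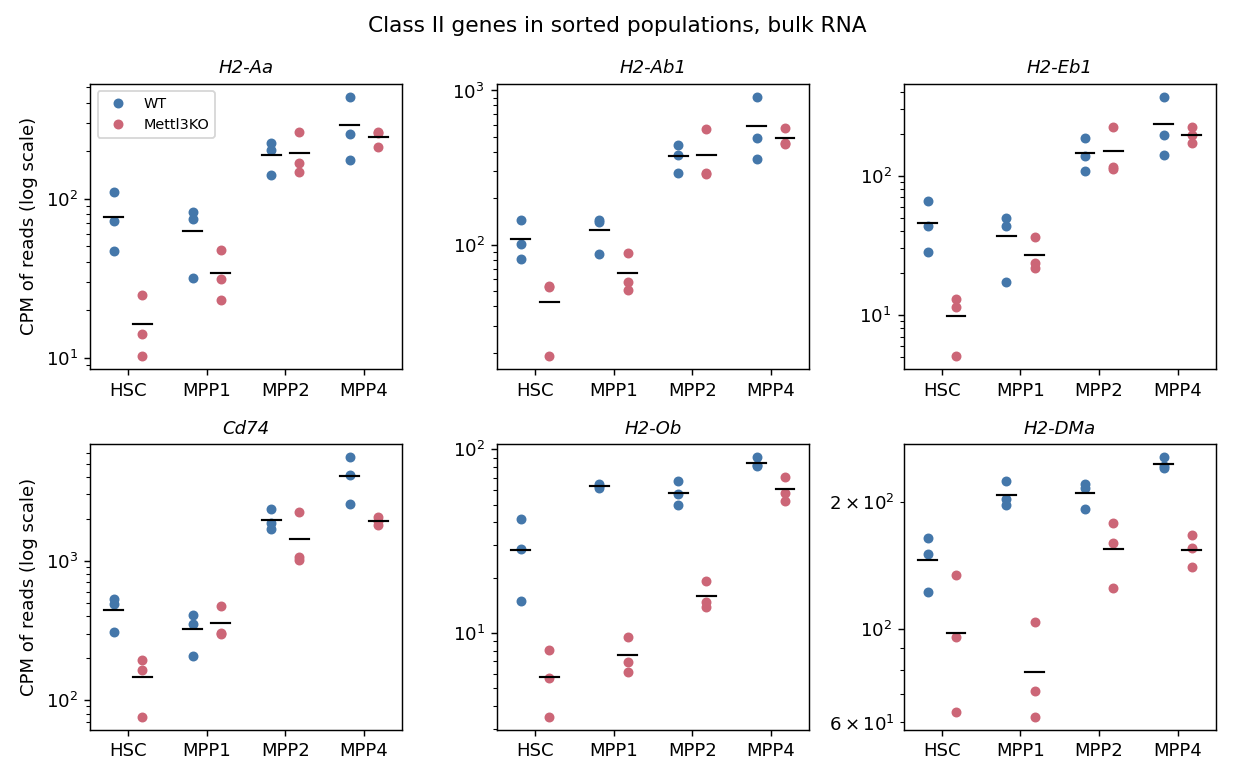
CPM of reads (log scale) of 6 class II genes in sorted HSC, MPP1, MPP2 and MPP4, 3 WT and 3 Mettl3KO libraries each (points), with lines at group means. In HSC the Mettl3KO points of H2-Aa, H2-Ab1, H2-Eb1, Cd74 and H2-Ob lie below all WT points, and the H2-Ob points do not overlap between genotypes in any of the 4 populations, although MPP4 did not pass the test.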

How the data were processed

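The 10x data were deposited as UMI counts, 27933 genes by 24693 cells with the library in the cell's name, and 297 cells over 10% mitochondrial UMIs were removed. The deposited bulk table is named as FPKM yet held whole-number counts of reads for 24063 gene names (28830704 to 55147797 per library), 27 of them dates, which were left out, so edgeR replaced the limma test planned for FPKM. The submitters' processing notes name Bowtie, TopHat, Cell Ranger 2.2, mm10 and GRCh37. The role of each, the annotation and the use of strand are not stated in the sources used here, so overlapping genes and near copies, the class II genes among them, are uncertain. Per the labels, bulk RNA was amplified by a SMARTer method.

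UMIs were summed per library over the gated cells, so that the mouse is the replicate, and tested with edgeR 4.0.16 (glmQLFit, glmQLFTest, filterByExpr, TMM, R 4.3.3), with Benjamini-Hochberg adjustment over all genes tested and a threshold of 0.05. DESeq2 1.42.0 was an alternative. Bulk counts were fitted with 1 mean for each of 8 groups. Ratios of gated to other cells used a pseudocount of 1 CPM. Clusters came from scanpy 1.11.5 and leidenalg 0.10.2 (Python 3.11.15; 1499 variable genes, 20 principal components, 15 neighbours, resolution 0.8). Doublets were marked with Scrublet and kept. Shares were compared by exact two-sided permutation tests (scipy 1.17.1). The fits were checked on simulated counts. Genes named were the gate's genes, members of 25 lists, the 20 leading genes of the gate, the 10 largest non-overlapping differences in each direction, and the 10 genes most like the class II sum. Genes of the high and low cells were named after their values were seen. The members and lists were chosen with earlier results of these data known.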

Additional observations from a re-analysis of the deposited data

Results flagged for a closer look

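The genotype difference of 162 genes differed between the gated and the other LK cells by edgeR's quasi-likelihood test of the interaction (adjusted p under 0.05), and in 154 of them the library ratios of gated to other cells did not overlap between genotypes. The second count was taken among called genes only and adds no separate support. The gate's own H2-Aa and H2-Eb1 are among the 162 and are set aside. The named genes follow as log2 differences, gated minus other cells. Among those larger in the gated cells were C3 (6.16), Lyz2 (3.46) and the iron exporter Slc40a1 (3.32), and also Lilrb4a (5.01), the protease Mmp9 (4.93), Aoah (4.79) and Pilrb2 (5.09). C3 and Lyz2 were leading genes of the macrophage-like cluster, and Slc40a1 is in the macrophage list. The interaction was not tested without the cells that carry C1q genes, which were more numerous in Mettl3KO. Nor was it tested without the cells with B cell genes outside the gate, which were also more numerous in Mettl3KO. C5ar1 (12.28), Adam33 (12.25) and Pilra (11.77) had no UMI in the WT gated cells, so their sizes depend on the prior count.

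The calls of Mmp9 (2.22, adjusted p = 0.712, edgeR) and C5ar1 (9.45, 0.334), as well as those of Lilrb4a, Pilra, Pilrb2 and Aoah, were lost without WT replicate 3, whose cells outside the gate had the most of each: C5ar1 was at 23.8 CPM there and at 0.525 to 3.98 CPM in the other libraries. C3 and Lyz2 held with any 1 library left out, and Slc40a1 was lost without Mettl3KO replicate 2 (2.57, 0.0517).

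Smaller in the gated cells were Mecom (-2.24), Esam (-2.39), Trp53i11 (-2.14), Rras2 (-2.45) and Npdc1 (-3.38), genes that were higher in the Mettl3KO cells outside the gate. Apbb1 (-5.75), Lax1 (-3.25), Gchfr (-3.04), Sla2 (-2.78) and Spata13 (-2.50) complete the list. Mecom, Esam, Trp53i11 and Rras2 held with any 1 library left out, and the other 6 were lost without at least 1.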

How the results depend on the processing

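The difference in gated share was 0.57 points and 0.23 to 0.82 points with 1 library left out, and it turned to -0.42 with no B cell UMI allowed and to -0.15 under 50 per 10000. It was 0.57 points at 10 or more per 10000 and 0.72 points with at least 3 class II UMIs, both without overlap (exact permutation p = 0.1). With no B cell UMI allowed, 104, 93 and 106 gated cells of 115, 101 and 128 stayed in WT. In Mettl3KO 82, 69 and 91 of 121, 119 and 155 stayed. The number of genes called in the gated cells (52) was 300 without the filter on low counts, 33 without doublets, 85 at 50 or more per 10000, 8 without C1q cells, 29 at 50 or more without C1q cells, 17 under 50, and 16 to 63 with 1 library left out. The splits at 50 and by C1q, and the tests outside the gate without B cell genes, were chosen after seeing the data. Under 50 per 10000, Cd74 and Plbd1 had log2 fold changes of -0.12 and -1.54, neither past the threshold. The values of H2-Eb1, H2-Aa and H2-Ab1 there, -0.078, -0.30 and -0.15, are descriptions, since the band was cut on their sum. Genes whose difference departed from that of the other LK cells (162) numbered 351 without the filter and 110 to 281 with 1 library left out. Class II calls in HSC (6) were 10 by DESeq2 and 4 to 5 with 1 library left out. Those in MPP1 (3) were 1 when only MPP1 libraries were fitted, those in MPP2 (1) were 2 by DESeq2, and those in MPP4 (0) were 2 in both of these settings. Over all genes, fits of 1 population called 521 in HSC, 33 in MPP1, 484 in MPP2 and 986 in MPP4, against 954, 1345, 382 and 488. With 1 library left out, the Cd40 difference in MPP1 was 0 (without Mettl3KO replicate 2) to 9.38, and that of Cd74 in the LK cells outside the gate was -0.19 to 0.058, above 0 without WT replicate 2 or 3 (0.032). The cause was not tested for these, beyond the smaller number of cells or libraries in a split.

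Replicate numbers were not treated as pairs of mice. With genotype means removed, same-numbered gated sums had correlations of -0.01, -0.13 and -0.16, and differently numbered ones -0.04 to 0.18. Low correlations of so few libraries cannot show that same-numbered mice were unrelated. With a replicate block 44 genes rose and 5 fell in the gated cells, and the paired test of the share gave an exact p of 0.25, the smallest that 3 pairs allow.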
